A study of Mus musculus with 2 samples.

Results

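Nuclei of the neonatal mouse cochlea that held transcripts of Gas2l3, Tnfaip6, Ano4 and their companion genes were examined. A nucleus was counted as a member when at least 3 of 6 genes (Gas2l3, Tnfaip6, Ano4, Stxbp5l, Cacna1e and Erbb4) had 1 or more unique molecular identifiers (UMIs, each standing for 1 captured transcript), with Gas2l3 or Tnfaip6 among them. It also had no UMI of Moxd1 or Cbln4, fewer than 2 of the mesenchymal genes Notum, Nkd1, Col6a6, Aldh1a2, Dio2 and Hhip, and fewer than 2 of the hair cell genes Myo3a, Dytn, Loxhd1 and Strip2. This gate held 1488 of the 18897 nuclei kept in the study, 777 of them in the Serpine2 cOE library and 711 in the control library.

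The study profiled nuclei of cochleae at postnatal day 7, after tamoxifen at postnatal day 1, from a tissue its labels call the basement membranes of the cochlea. The Serpine2 cOE library pooled 20 cochleae of Lgr5EGFP-CreER/+,Serpine2loxp/loxp mice, in which a tamoxifen-dependent Cre recombinase is expressed from the Lgr5 locus together with EGFP. The control library pooled 19 cochleae of Serpine2loxp/loxp mice, which carry no driver and also received tamoxifen. The labels call the driver-bearing genotype an overexpression of Serpine2, but they do not describe what recombination does to the loxP-bearing allele. Whatever recombination did to Serpine2, it came together with the driver itself, and effects of the 2 cannot be told apart. Each group was 1 pooled library, so no difference between the groups has a replicate check, and the 95% intervals given here cover counting error only.

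Tnfaip6 encodes TSG-6, a secreted protein that binds hyaluronan and moves protein chains onto it, and that is induced in many cells by inflammatory signals. Gas2l3 encodes a protein that binds both actin filaments and microtubules and is known mainly from dividing cells. Ano4 belongs to the anoctamin family of membrane proteins, Cacna1e encodes the pore of the R-type voltage-gated calcium channel, Stxbp5l is a tomosyn that binds SNARE proteins of the secretory machinery, and Erbb4 is a receptor tyrosine kinase for neuregulins. The mesenchyme around the cochlear duct is marked by the transcription factors Tbx18 and Pou3f4 and gives rise to the fibrocytes of the spiral ligament and limbus and to the cells that line the basilar membrane on its tympanic side.

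Gas2l3 and Ano4 are neighbours on mouse chromosome 10, whereas Tnfaip6 lies on chromosome 2. In the GRCm39 annotation (GENCODE M39), Ano4 spans chr10:88784789-89181063 and Gas2l3 spans chr10:89244685-89279829, both on the minus strand and 63621 bases apart. Tnfaip6 spans chr2:51927998-51946698 on the plus strand. The promoter windows of Gas2l3 and Tnfaip6, of which every member had at least 1, from 250 bases before to 50 bases after the annotated start, are shown because these transcripts define the nuclei. They come from RefSeq on GRCm38.p6, at chr10:89443918-89444217 on the minus strand for Gas2l3 and at chr2:52037863-52038162 on the plus strand for Tnfaip6. Capitals mark the letters of any motif searched.
Gas2l3: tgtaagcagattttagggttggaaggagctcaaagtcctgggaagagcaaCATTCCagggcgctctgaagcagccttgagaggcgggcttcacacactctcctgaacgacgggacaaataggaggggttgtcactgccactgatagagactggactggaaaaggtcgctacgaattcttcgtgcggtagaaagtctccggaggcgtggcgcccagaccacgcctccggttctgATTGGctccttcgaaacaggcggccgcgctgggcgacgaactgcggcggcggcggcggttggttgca
Tnfaip6: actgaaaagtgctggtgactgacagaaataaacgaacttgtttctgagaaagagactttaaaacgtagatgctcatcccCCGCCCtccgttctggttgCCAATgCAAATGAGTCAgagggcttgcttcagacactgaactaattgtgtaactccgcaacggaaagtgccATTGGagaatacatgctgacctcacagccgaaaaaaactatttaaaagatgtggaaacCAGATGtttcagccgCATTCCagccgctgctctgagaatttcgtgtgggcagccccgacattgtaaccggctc
Both strands were searched for the TATA motif spelled TATAAA, for the promoter motif spelled CCAAT, for the GC box spelled GGGCGG, for the AP-1 motif spelled TGANTCA, for the E-box spelled CANNTG and for the TEAD motif spelled GGAATG. The Gas2l3 window held 1 CCAAT and 1 TEAD match and none of the other motifs. The Tnfaip6 window held 2 CCAAT matches, 1 GC box, 1 AP-1 match, 2 E-boxes and 1 TEAD match, with the AP-1 match overlapping an E-box. Among 32851 promoter windows of the same length, 37.4% held the CCAAT motif, 35.7% the GC box, 7.81% the AP-1 motif, 72.3% an E-box, 14.7% the TEAD motif and 13.6% the TATA motif. These matches describe letters and not bound factors.

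The kept nuclei had 500 or more genes, up to 5% mitochondrial UMIs and up to 10000 UMIs, and numbered 10305 in Serpine2 cOE and 8592 in control, with 30092653 and 23021006 UMIs. Members had a median of 2267 UMIs and 1452 genes in Serpine2 cOE and of 2246 UMIs and 1443 genes in control, against 2456.5 and 2240 UMIs in the other kept nuclei. Mitochondrial transcripts made up a median of 0.390% of the UMIs of Serpine2 cOE members and 0.280% of those of control members. The highest doublet scores were held by 9.78% of Serpine2 cOE members and 10.1% of control members, against 8.24% and 7.31% of the other kept nuclei, and no doublet was removed. The libraries shared 27 barcodes in all and none among members. Xist stood at 2728 CPM (UMIs of a gene per 1000000 UMIs of the nuclei pooled) in Serpine2 cOE members and 3184 CPM in control members, while Y-linked genes summed to 586 and 472 CPM, so the pools differed in these genes too.

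The gate was met by combinations of genes far more often than by the full set named for it. All of Gas2l3, Tnfaip6 and Ano4 were detected in 87 of 777 Serpine2 cOE members (11.2%) and 64 of 711 control members (9.001%), and 20 and 19 members had Cacna1e as well. Most members came in through Tnfaip6: 502 in Serpine2 cOE and 458 in control had Tnfaip6 without Gas2l3, 152 and 146 had Gas2l3 without Tnfaip6, and 123 and 107 had both. Exactly 3 of the 6 genes were found in 341 Serpine2 cOE members (43.9%) and 365 control members (51.3%), and all 6 in 16 and 12 members. The exclusions removed more nuclei than the gate kept, since 1883 nuclei in Serpine2 cOE and 1652 in control had the required transcripts. Of these, 877 and 699 were left out by the 6 mesenchymal genes, 349 and 355 by Moxd1 or Cbln4, and 41 and 31 by the hair cell genes, with some nuclei failing more than 1 condition. Among members, 510 in Serpine2 cOE (65.6%) and 430 in control (60.5%) still held 1 of the 6 mesenchymal genes.

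Nuclei just inside and just outside the gate are set side by side as a description. In Serpine2 cOE, the 341 members with exactly 3 genes had Ano4 at 402 CPM and Stxbp5l at 367 CPM, while the 340 nuclei with exactly 2 genes and otherwise passing had 28.3 and 62.8 CPM. In control, the 365 members with exactly 3 genes had 389 and 334 CPM, and the 344 nuclei with exactly 2 had 61.7 and 87.1 CPM. Opcml, a gene outside the rule that encodes a cell adhesion protein of the IgLON family, stood at 1406 CPM just inside and 633 CPM just outside in Serpine2 cOE, and at 1448 and 977 CPM in control. Tbx18 was at 525 CPM just inside and 292 CPM just outside in Serpine2 cOE, and at 550 and 395 CPM in control.

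The members did not form a cluster of their own when the genes of the rule were left out of the clustering. All kept nuclei of both libraries were grouped into 27 clusters by their other transcripts. Members were found in 25 clusters in Serpine2 cOE and in 22 in control. Whether they would group apart with the genes of the rule included was not tested. Clusters 10, 9 and 1 held 598 of the 777 Serpine2 cOE members (77.0%) and 512 of the 711 control members (72.0%), and in none of them were members the majority. The label given to these nuclei is therefore used here only as the name of a gate.

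Cluster 10 was led by Opcml, Gm48091, Kctd16, Pcsk2, Robo2, Emcn, Cdh18 and Cdh6, and 231 of its 1119 Serpine2 cOE nuclei (20.6%, 95% interval 18.3 to 23.1%) and 222 of its 1201 control nuclei (18.5%, 16.3 to 20.8%) were members. Cluster 9 was led by 8030451A03Rik, Tnc, Qrfprl, Epha3, Dab1, Plpp4, Nkd1, Cnr1 and Notum. Of it, 225 of 1249 Serpine2 cOE nuclei (18.01%) and 169 of 1017 control nuclei (16.6%) were members. Cluster 1 was led by Col6a6, Unc13c, Aldh1a2, Dcc, Col15a1, Unc5c and Grik1, and 142 of 1617 Serpine2 cOE nuclei (8.78%) and 121 of 1484 control nuclei (8.15%) were members. Gas2l3 was detected in 24.9% of all cluster 9 nuclei in Serpine2 cOE and 19.5% in control, and Tnfaip6 in 38.7% and 37.6%. In cluster 1, 8.66% and 8.89% of nuclei had Gas2l3 and 27.3% and 26.1% had Tnfaip6, so that most of its nuclei lacked both key genes of the gate. Nkd1, Notum, Col6a6 and Aldh1a2, which lead clusters 9 and 1, are also limited by the rule.

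**Figure D1:**
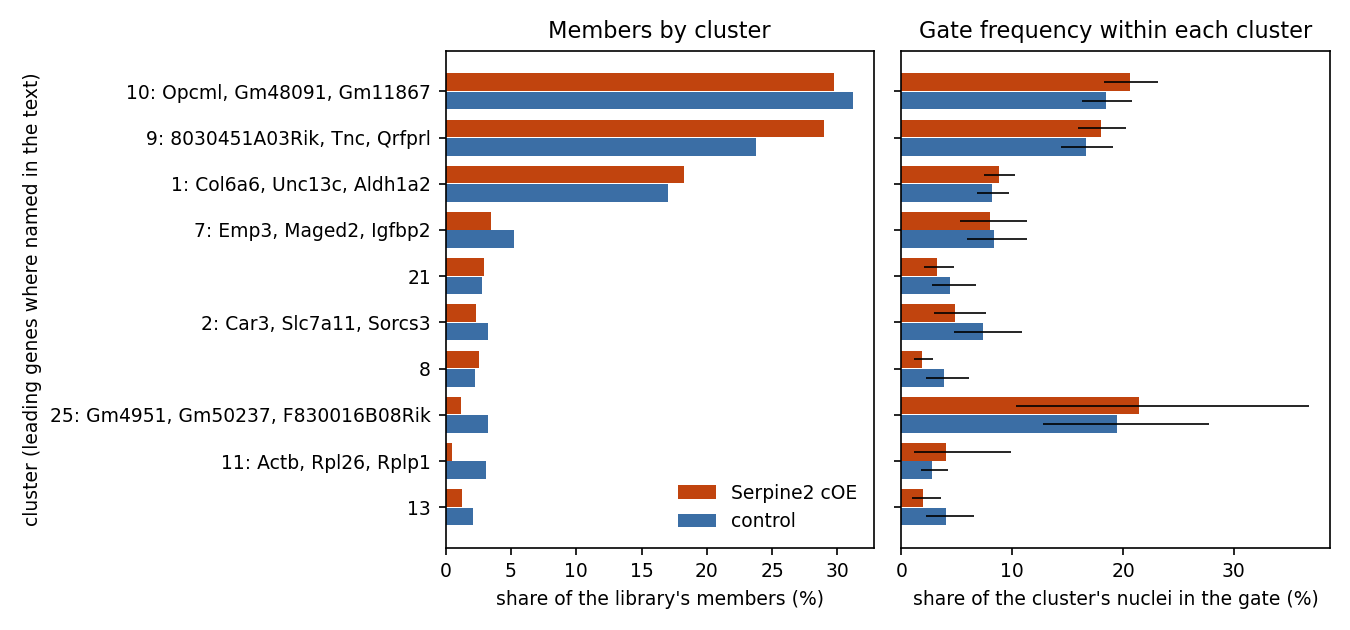
Left, share of each library's members (%) in the 10 clusters that hold most of them, and right, share of each cluster's nuclei that passed the gate (%), with Serpine2 cOE above control and lines for exact 95% binomial intervals. Clusters 10, 9 and 1 hold 77.0% of the Serpine2 cOE members and 72.0% of the control members, and in every cluster shown most nuclei lie outside the gate.

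Smaller groups of members lay elsewhere. Cluster 25, led by the interferon-induced genes Gm4951, Iigp1 and Irgm2, held 9 members among 42 Serpine2 cOE nuclei (21.4%) and 23 among 118 control nuclei (19.5%). Cluster 7, led by Emp3, Maged2 and Igfbp2, held 27 and 37 members (7.96% and 8.35% of its nuclei). Cluster 11, led by Actb and ribosomal protein transcripts and shallow at a median of 947.5 UMIs in Serpine2 cOE and 885 UMIs in control, held 4 of 100 and 22 of 788 nuclei. The hair cell cluster 15, which expressed Slc26a5 and Tmc1, held no member among 329 Serpine2 cOE nuclei and none among 233 control nuclei. That absence follows in part from the exclusion of hair cell genes.

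Each key gene drew on a different mix of clusters. Members with Tnfaip6 and without Gas2l3 were most often in cluster 10, at 34.1% in Serpine2 cOE and 34.1% in control, and in cluster 9 at 23.3% and 22.9%. Members with Gas2l3 and without Tnfaip6 were most often in cluster 9, at 35.5% in Serpine2 cOE and 25.3% in control, and in cluster 10 at 19.7% and 21.2%. Members with both were in cluster 9 at 43.9% in Serpine2 cOE and 25.2% in control, and in cluster 10 at 24.4% and 32.7%.

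Within the gate, the genes that defined it stood as the rule required, and their levels are given as a description only. Tnfaip6 was at 531 CPM in Serpine2 cOE members (95% interval 500.3 to 563) against 83.6 CPM in the other kept nuclei, and at 528 CPM in control members (496 to 562) against 102 CPM. Gas2l3 was at 184 CPM in Serpine2 cOE members (167 to 204) against 34.6 CPM in the others, and at 172 CPM in control members (153 to 191) against 36.3 CPM. Ano4 was at 606 CPM in Serpine2 cOE members against 211 CPM, and at 540 CPM in control members against 217 CPM. All 3 were several-fold higher inside the gate in each library.

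Stxbp5l was at 575 CPM in Serpine2 cOE members against 217 CPM in the others, and at 536 CPM in control members against 239 CPM. Cacna1e was at 177 CPM in Serpine2 cOE members against 70.9 CPM, and at 184 CPM in control members against 84.0 CPM. It was found in only 21.8% of Serpine2 cOE members and 21.2% of control members, so most members lack a Cacna1e UMI. Erbb4 was at 3203 CPM in Serpine2 cOE members against 1367 CPM, and at 2313 CPM in control members against 1211 CPM, and 96.5% and 94.1% of members had a UMI of it. Because 64.1% of the other Serpine2 cOE nuclei and 62.4% of the other control nuclei had one too, Erbb4 separated members from the rest less than the other genes of the gate.

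**Figure D2:**
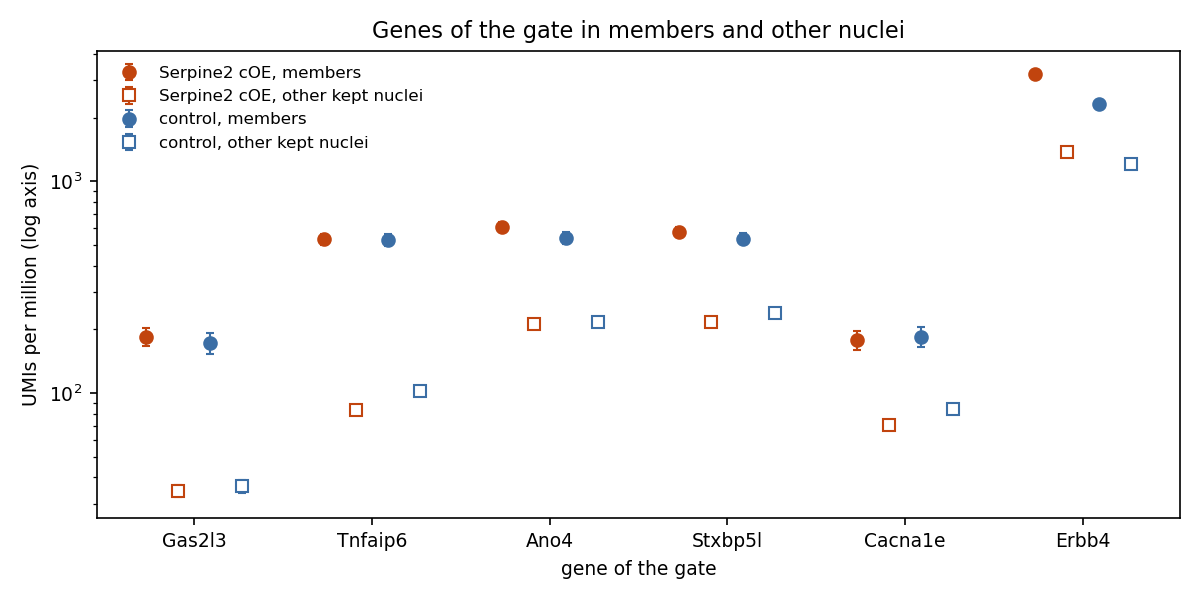
Level of the 6 genes of the gate (CPM, log axis) in members (filled circles) and other kept nuclei (open squares) of each library, Serpine2 cOE left of control for each gene, with exact 95% Poisson intervals. Every gene is higher in members, as the rule requires, from 2.67 log2 units for Tnfaip6 in Serpine2 cOE down to 0.93 for Erbb4 in control.

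Across all kept nuclei, whether in the gate or not, the 6 genes did not share 1 pattern. Among the 19 clusters with at least 100 nuclei in Serpine2 cOE and the 17 in control, Gas2l3 was highest in cluster 9, at 178 CPM in Serpine2 cOE and 120 CPM in control, against 59.8 and 70.6 CPM in cluster 10 and 46.8 and 42.7 CPM in cluster 1. The cluster led by the macrophage gene Mrc1 held 89.5 CPM of it in Serpine2 cOE and 75.5 CPM in control, which is above clusters 10 and 1. Tnfaip6 was as high in cluster 10, at 332 CPM in Serpine2 cOE and 334 CPM in control, as in cluster 9, at 348 and 293 CPM, and stood at 252 and 235 CPM in cluster 7. Its level in cluster 1 was 167 CPM in Serpine2 cOE and 163 CPM in control.

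Among the same clusters, Ano4 was highest in cluster 9, at 697 CPM in Serpine2 cOE and 554 CPM in control, and next in cluster 10 at 576 and 493 CPM. It was higher still in the small cluster 19, at 810 CPM in 69 Serpine2 cOE nuclei and 663 CPM in 14 control nuclei, where 97.1% and 100% of nuclei had a UMI of it. Cluster 19 held no member, and its leading genes include Xirp2 and Pkhd1l1, which are known from hair cells. Stxbp5l was at 687 CPM in Serpine2 cOE and 683 CPM in control in cluster 9 and at 665 and 577 CPM in cluster 1, but stood at 310 and 320 CPM in cluster 10. Cacna1e had its highest level outside the 3 main clusters, in cluster 2 led by Car3, at 402 CPM in Serpine2 cOE and 390 CPM in control. In cluster 10 it was at 43.9 CPM in Serpine2 cOE and 43.1 CPM in control, so the cluster that gave the most members was poor in Cacna1e. Erbb4 was highest in cluster 10 in Serpine2 cOE, at 3724 CPM, where control had 2382 CPM. In control it was highest in cluster 25, led by interferon-induced genes, at 3436 CPM in 118 nuclei. Those control nuclei also held Tnfaip6 at 302 CPM, Gas2l3 at 111 CPM and Ano4 at 453 CPM.

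**Figure D3:**
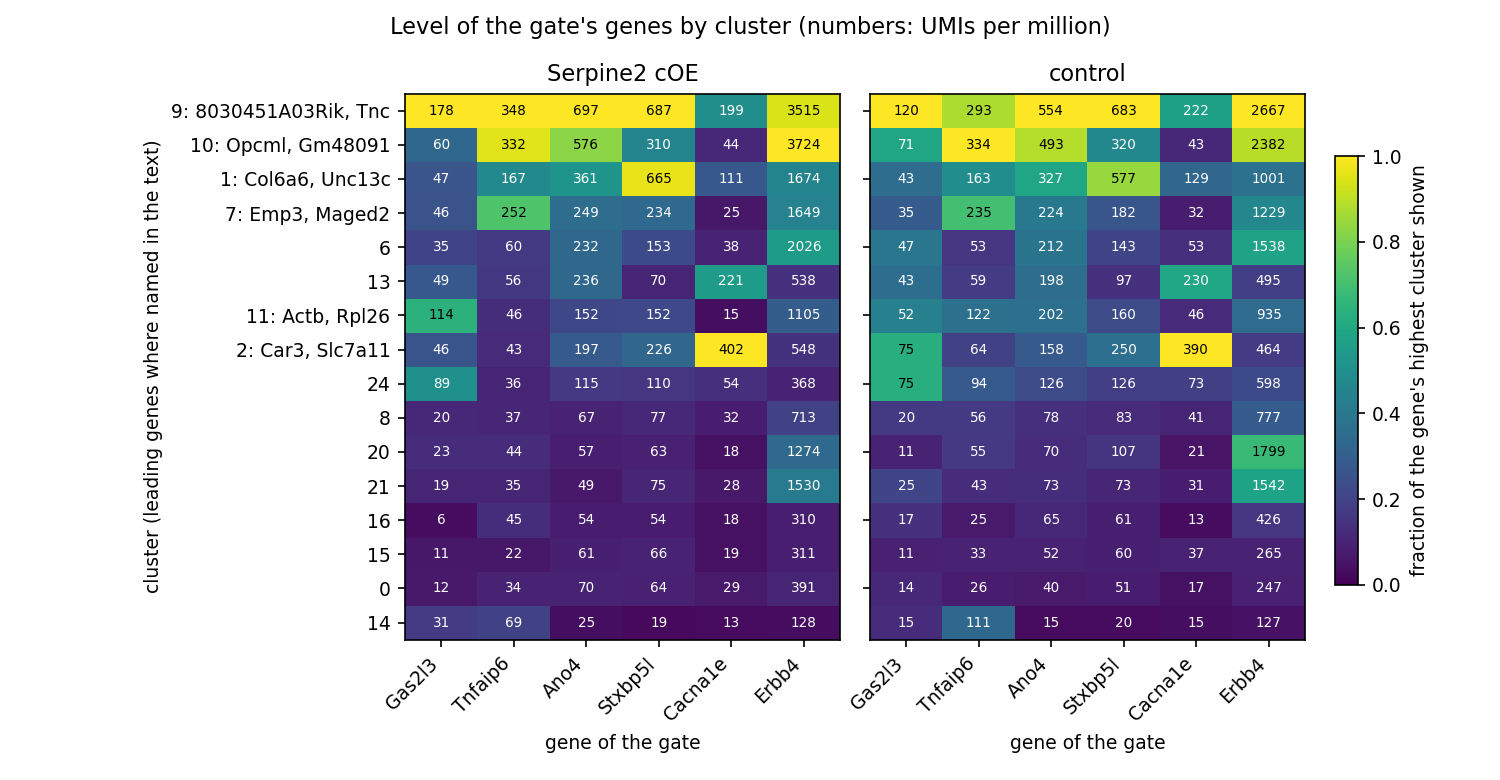
Level of each gene of the gate in 16 clusters of the kept nuclei, numbers in CPM and colour as a fraction of the gene's highest cluster shown, for Serpine2 cOE (left) and control (right). Cluster 9 is at or near the top for every gene but Cacna1e, which peaks in cluster 2 at 402 CPM in Serpine2 cOE and 390 CPM in control.

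Detection was also compared at equal depth, with each nucleus thinned to 1000 UMIs. Gas2l3 was then detected in 14.6% of cluster 9 nuclei in Serpine2 cOE (95% interval 12.6 to 16.7%) and 10.96% in control (9.06 to 13.1%), against 24.9% and 19.5% before thinning. Nuclei with 3 or more macrophage markers, a cell type outside the mesenchyme, gave 7.30% in Serpine2 cOE and 5.26% in control at median depths of 2008 and 2054 UMIs. Hair cells of cluster 15 gave 0.608% and 1.29% at median depths of 5401 and 5587 UMIs. The Gas2l3 shares of cluster 10, at 4.84% in Serpine2 cOE and 6.46% in control, and of cluster 1, at 3.31% and 4.14%, lay above the hair cell intervals of 0.0737 to 2.18% in Serpine2 cOE and, for cluster 10, of 0.266 to 3.72% in control, while the control interval of cluster 1, 3.17 to 5.29%, overlapped that of the control hair cells. None of these shares exceeded the intervals of the macrophage-marker nuclei, 3.56 to 13.0% in Serpine2 cOE and 2.43 to 9.76% in control, but these nuclei cannot serve as a background, since the Mrc1 cluster had a higher Gas2l3 level in CPM than clusters 10 and 1. Clusters 9, 10 and 1 had median depths of 1979, 1980 and 2305 UMIs in Serpine2 cOE and of 1981, 2012 and 2273 UMIs in control.

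Tnfaip6 was detected more often in all 3 clusters than in the hair cells of cluster 15. It was detected at equal depth in 23.8% of cluster 9 nuclei in Serpine2 cOE and 22.5% in control, in 23.5% and 23.2% of cluster 10 nuclei, and in 13.8% and 13.0% of cluster 1 nuclei. The macrophage-marker nuclei gave 4.38% in Serpine2 cOE and 7.60% in control, and hair cells 2.13% and 3.86%, so that clusters 9 and 10 lay above both, while the control interval of cluster 1, 11.3 to 14.8%, overlapped that of the macrophage-marker nuclei, 4.11 to 12.6%. Ano4 was detected in 45.2% of cluster 9 nuclei in Serpine2 cOE and 36.7% in control, against 4.26% and 3.86% of cluster 15 hair cells, whereas nearly all nuclei of cluster 19 had it. The full gate was passed by 6 of 143 macrophage-marker nuclei in Serpine2 cOE (4.196%) and 8 of 184 in control (4.35%), as a measure of how often nuclei of another type entered it.

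The other genes of the gate were also compared between nuclei with and without Gas2l3. In cluster 9 at equal depth, Tnfaip6 was found in 25.7% of nuclei with Gas2l3 and 23.4% of nuclei without it in Serpine2 cOE, and in 27.4% and 21.95% in control, with overlapping intervals. Ano4 was found in 49.2% of nuclei with Gas2l3 and 44.5% of those without it in Serpine2 cOE, and in 46.2% and 35.5% in control. In cluster 10, Tnfaip6 was found in 34.0% of nuclei with Gas2l3 and 22.9% of those without it in Serpine2 cOE, and in 27.03% and 22.97% in control. In cluster 1, Tnfaip6 was in 13.2% of nuclei with Gas2l3 and 13.8% of those without it in Serpine2 cOE, and in 11.7% and 13.0% in control. Over the 5 other genes, the 3 clusters and both libraries, 6 of 30 comparisons had a higher share with Gas2l3 and intervals that did not overlap, and none had a lower one. These were Ano4 and Stxbp5l in clusters 10 and 1 and Erbb4 in cluster 1, all in Serpine2 cOE, and Cacna1e in cluster 1 in control. With nuclei split by Tnfaip6 instead, 2 of 30 comparisons were higher in this way and 0 lower. The 2 were Stxbp5l and Erbb4 in cluster 9 in Serpine2 cOE. Genes outside the gate were not counted in this way, so neither count has a background. Ano4 was in 58.5% of cluster 10 nuclei with Gas2l3 (44.1 to 71.9%) and 36.9% of those without it (33.9 to 39.9%) in Serpine2 cOE, and in 43.2% and 34.6% in control. Stxbp5l was in 62.3% of cluster 1 nuclei with Gas2l3 (47.9 to 75.2%) and 35.0% of those without it (32.6 to 37.4%) in Serpine2 cOE, and in 43.3% and 34.4% in control. These shares are a description over nuclei of the same library.

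Few genes beyond the rule marked the members off from the rest. Among 10023 genes with at least 50 UMIs in members, 16 (0.16%) were at least 2-fold higher in members than in the other kept nuclei in both libraries, and 5 of these were genes of the gate. Among 17703 genes with at least 50 UMIs in the other nuclei, 1099 (6.21%) were at least 2-fold lower. Against the other nuclei of clusters 10, 9 and 1 alone, 2 of 8074 genes (0.0248%), Tnfaip6 and Gas2l3, were at least 2-fold higher, and 75 of 13688 (0.548%) were lower. Most genes past 2-fold against the rest of the tissue were thus below 2-fold against nuclei of the same clusters.

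Of the higher genes outside the rule with a UMI in at least 10% of members, Opcml ranked first among those coding for a protein. Opcml was at 1347 CPM in Serpine2 cOE members against 401 CPM in the other kept nuclei, and at 1398 CPM in control members against 619 CPM (log2 ratios of 1.75 and 1.17). Gm48091, an antisense transcript that overlaps Opcml on the opposite strand, was at 97.7 CPM in Serpine2 cOE members against 38.5 CPM and at 148 CPM in control members against 63.0 CPM, and without stated strand use in counting its reads cannot be told apart from those of Opcml. Epha3, a receptor for ephrins, was at 1095 CPM in Serpine2 cOE members against 497 CPM and at 1103 CPM in control members against 532 CPM, and was found in 68.5% and 70.6% of members. Tnc, the matrix glycoprotein tenascin C, was at 444 CPM in Serpine2 cOE members against 230 CPM and at 480 CPM in control members against 257 CPM, below 2-fold in both libraries. Against the other nuclei of the 3 clusters, the log2 ratios of Opcml were 0.80 in Serpine2 cOE and 0.55 in control, and those of Epha3 were 0.27 and 0.36.

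Signalling genes formed another part of the list. Grik1, a subunit of kainate-type glutamate receptors, was at 474 CPM in Serpine2 cOE members against 200.3 CPM in the other kept nuclei, and at 577 CPM in control members against 262 CPM. Cnr1, the cannabinoid receptor of the nervous system, was at 85.8 CPM in Serpine2 cOE members against 37.9 CPM, and at 63.7 CPM in control members against 29.4 CPM. Anks1b, which encodes an ankyrin-repeat protein of synapses and lies 428955 bases from Gas2l3, was at 288 CPM in Serpine2 cOE members against 127 CPM and at 344 CPM in control members against 160 CPM. Anks1b kept log2 ratios of 1.02 in Serpine2 cOE and 0.91 in control against the other nuclei of clusters 10, 9 and 1, the most of any named gene outside the rule.

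Lipid enzymes were also on the list. Plpp4, a lipid phosphate phosphatase, was at 459 CPM in Serpine2 cOE members against 205 CPM and at 526 CPM in control members against 267 CPM. Pip5k1b, a phosphatidylinositol phosphate kinase, was at 1856 CPM in Serpine2 cOE members against 798 CPM and at 2101 CPM in control members against 1093 CPM, and was detected in 94.6% and 95.1% of members. The overlapping antisense transcript Pip5k1bos had log2 ratios of 1.42 in Serpine2 cOE and 0.94 in control. A4galt, a glycosphingolipid synthase, had log2 ratios of 1.13 and 0.92.

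The other named genes were the matricellular gene Ccn3, the endocytic receptor gene Cubn, the neuropeptide FF receptor gene Npffr2, Samd5, the Ras-like gene Rerg, and the noncoding transcripts 8030451O07Rik, Gm48749 and Gm44071. Their log2 ratios ran from 0.92 for Cubn to 1.504 for 8030451O07Rik in Serpine2 cOE and from 0.90 for Rerg to 1.09 for 8030451O07Rik in control. Npffr2 was at 65.9 CPM in Serpine2 cOE members against 27.6 CPM, and at 65.3 CPM in control members against 35.0 CPM. Outside the genes of the gate and Anks1b, no named gene had a log2 ratio above 0.80 against the other nuclei of clusters 10, 9 and 1 in either library.

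On the lower side, the rule's own exclusion of hair cell and mesenchymal genes fixes part of the list. Dnm3, a dynamin, was at 35.6 CPM in Serpine2 cOE members against 193 CPM and at 36.7 CPM in control members against 206 CPM. Ctnnd2, a catenin of neural and epithelial junctions, was at 66.4 CPM in Serpine2 cOE members against 294 CPM and at 46.2 CPM in control members against 272 CPM. Rbm24, an RNA-binding splicing factor of hair cells and muscle, was at 41.7 CPM in Serpine2 cOE members against 241 CPM and at 39.3 CPM in control members against 174 CPM.

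Mesenchymal markers summed to slightly more in members than outside. The 12 mesenchyme markers, all detected, summed to 2075 CPM in Serpine2 cOE members against 1740 CPM in the other kept nuclei, and to 2009 CPM in control members against 1774 CPM, and 0 of 10 were at least 2-fold higher and 0 of 12 at least 2-fold lower. Without Tbx18 and Pou3f4, the other 10 markers summed to 1426 CPM in Serpine2 cOE members against 1381 CPM and to 1316 CPM in control members against 1343 CPM. Tbx18 was at 529 CPM in Serpine2 cOE members against 272 CPM and at 546 CPM in control members against 325 CPM, and 68.1% and 66.4% of members had a UMI of it. Pou3f4 was at 120 CPM in Serpine2 cOE members against 87.2 CPM and at 148 CPM in control members against 106 CPM. The fibrillar collagen gene Col1a1 was at 9.96 CPM in Serpine2 cOE members and 7.44 CPM in control members, and Col1a2 at 332 and 330 CPM.

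Fibrocyte, ligament and limbus markers summed to 1876 CPM in Serpine2 cOE members against 1740 CPM and to 1790 CPM in control members against 1759 CPM, with Otor, a secreted cochlear protein, making up 1126 and 1050 CPM of the members' sums. Coch, the cochlin of mature fibrocytes, was at 17.5 CPM in Serpine2 cOE members and 14.3 CPM in control members. Tympanic border markers, which include excluded genes, summed to 782 CPM in Serpine2 cOE members against 927 CPM and to 884 CPM in control members against 1064 CPM. Osteoblast and chondrocyte markers summed to 1081 CPM in Serpine2 cOE members against 1537 CPM and to 996 CPM in control members against 1437 CPM.

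Markers of other cell types were mostly lower in members than outside. Hair cell markers, which include Myo3a, Dytn, Loxhd1 and Strip2 that the rule limits, summed to 698 CPM in Serpine2 cOE members against 1461 CPM. In control members they summed to 653 CPM against 1311 CPM. Markers of the greater epithelial ridge (Kölliker's organ) summed to 813 CPM in Serpine2 cOE members against 1919 CPM and to 663 CPM in control members against 1354 CPM. Supporting cell markers were at 2305 CPM in Serpine2 cOE members against 2364 CPM and at 2135 CPM in control members against 2074 CPM. Of the cell types that the labels name, hair cell markers were lower in members than outside, which the rule fixes in part. The sum of the supporting cell markers was close to its level outside. A sum can be carried by few of its genes, so it does not show that most of these markers were near their level outside.

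General epithelial markers summed to 444 CPM in Serpine2 cOE members against 652 CPM and to 275 CPM in control members against 438 CPM. Interdental and roof cell markers summed to 689 CPM in Serpine2 cOE members against 1105 CPM and to 471 CPM in control members against 868 CPM. Glial markers summed to 191 CPM in Serpine2 cOE members against 336 CPM and to 157 CPM in control members against 286 CPM, and Foxd3 and Cdh19 were at 0 in control. Macrophage markers summed to 79.2 CPM in Serpine2 cOE members against 118 CPM and to 94.6 CPM in control members against 172 CPM.

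The neuron and endothelium lists stood higher in members, mostly through 1 gene each. Spiral ganglion neuron markers summed to 1500 CPM in Serpine2 cOE members against 943 CPM and to 1466 CPM in control members against 982 CPM, of which Syt1, a synaptic vesicle calcium sensor, made up 1361 and 1389 CPM. Of the 12 listed genes, 11 had a UMI in each library and 4 had at least 50 UMIs over both libraries. Prph had no UMI in Serpine2 cOE members, Nefh had none in control members, and Rbfox3 had 2 and 4 UMIs. Elavl4 had 50 UMIs in Serpine2 cOE members and 3 in control members. Endothelial markers summed to 752 CPM in Serpine2 cOE members against 444 CPM and to 818 CPM in control members against 533 CPM, of which Emcn, a leading gene of cluster 10, made up 694 and 772 CPM, while Erg and Ptprb were at 0 in control. The part of free RNA or doublets in these sums was not tested.

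Pathway lists around the genes of the gate were counted by the same 2-fold limit, beside which over all genes tested, 0.16% were higher and 6.21% lower. Of the hyaluronan list, 1 of 5 genes with enough UMIs was higher, which was Tnfaip6 and so was fixed by the rule, and 2 of 18 were lower. Itih5, whose family supplies chains that TSG-6 moves onto hyaluronan, was at 320 CPM in Serpine2 cOE members against 362 CPM and at 302 CPM in control members against 335 CPM. Anoctamins other than Ano4 summed to 422 CPM in Serpine2 cOE members against 961 CPM and to 460 CPM in control members against 756 CPM, with 0 of 5 higher and 2 of 7 lower. Calcium channel genes other than Cacna1e had 0 of 13 higher and 3 of 17 lower, and Cacna1d, an L-type channel of inner hair cells, was at 256 CPM in Serpine2 cOE members against 545 CPM and at 241 CPM in control members against 523 CPM.

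Among receptors and adhesion molecules of neurons, few genes were past 2-fold, beside 0.16% higher and 6.21% lower over all genes tested. The higher genes, 1 in each list, were a larger share of these short lists than of all genes. Of 11 glutamate receptor genes tested, Grik1 was the 1 past 2-fold. Axon guidance genes summed to 11153 CPM in Serpine2 cOE members against 7536 CPM and to 11019 CPM in control members against 8142 CPM. Of these genes, 1 of 30 was higher (Epha3) and 1 of 32 lower. Robo2, a receptor for Slit proteins, was at 2420 CPM in Serpine2 cOE members against 1102 CPM and at 2497 CPM in control members against 1378 CPM. Cadherins, contactins and IgLON genes summed to 12137 CPM in Serpine2 cOE members against 7585 CPM and to 11522 CPM in control members against 8504 CPM, with 1 of 25 higher (Opcml) and 4 of 27 lower.

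Mesenchymal transcription factors had 0 of 37 genes higher and 3 of 42 lower, and collagens 0 of 28 higher and 1 of 34 lower, beside 0.16% higher and 6.21% lower over all genes. Creb5, a bZIP factor, was at 1409 CPM in Serpine2 cOE members against 655 CPM and at 1607 CPM in control members against 928 CPM. Rarb, a retinoic acid receptor, was at 460 CPM in Serpine2 cOE members against 248 CPM and at 495 CPM in control members against 321 CPM. Thrb, a thyroid hormone receptor, was lower in members, at 281 CPM in Serpine2 cOE against 551 CPM and at 256 CPM in control against 493 CPM. Wnt pathway genes had 0 of 31 higher and 4 of 40 lower, beside the same 0.16% and 6.21% over all genes and with genes that the rule excluded in the list, and Lef1, a transcription factor of the pathway, was at 426 CPM in Serpine2 cOE members against 325 CPM and at 460 CPM in control members against 351 CPM.

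The members of the 3 main clusters differed from one another in the genes that lead these clusters. In cluster 10, Opcml was at 3585 CPM in Serpine2 cOE members and 3501 CPM in control members, against 873 and 640 CPM in cluster 9 members and 172 and 194 CPM in cluster 1 members. Kctd16, an auxiliary subunit of GABA-B receptors, followed that order in part, at 605 and 601 CPM in cluster 10, 166 and 196 CPM in cluster 9 and 341 and 463 CPM in cluster 1. Anks1b was at 526 and 533 CPM in cluster 10 members, against 129 and 228 CPM in cluster 9 and 180 and 233 CPM in cluster 1.

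Tnc, Epha3, Plpp4 and Cnr1 were higher in CPM in cluster 9 members than in cluster 1 members. Tnc was at 1110 CPM in Serpine2 cOE members and 1398 CPM in control members of cluster 9, against 352 and 268 CPM in cluster 10 and 258 and 240 CPM in cluster 1. Epha3 was at 2540 and 2562 CPM in cluster 9, against 1133 and 959 CPM in cluster 10 and 419 and 466 CPM in cluster 1. Plpp4 was at 944 and 1055 CPM in cluster 9 and at 88.7 and 77.7 CPM in cluster 1, and Cnr1 at 219 and 173 CPM in cluster 9 and at 36.0 and 45.3 CPM in cluster 1. The Wnt inhibitor gene Nkd1, limited by the rule, was at 484 CPM in Serpine2 cOE members and 841 CPM in control members of cluster 9.

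Cluster 1 members carried Dcc, the netrin receptor, at 1913 CPM in Serpine2 cOE and 1590 CPM in control, against 960 and 772 CPM in cluster 10 members and 340 and 418 CPM in cluster 9 members. Unc13c, a gene of synaptic vesicle priming, was at 804 and 754 CPM in cluster 1 members and at 140 and 112 CPM in cluster 9 members. Tbx18 was at 807 and 852 CPM in cluster 1, 580.5 and 545 CPM in cluster 10 and 516 and 452 CPM in cluster 9. Pip5k1b varied less over the clusters, between 1841 and 2460 CPM in Serpine2 cOE and between 2004 and 2757 CPM in control.

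**Figure D4:**
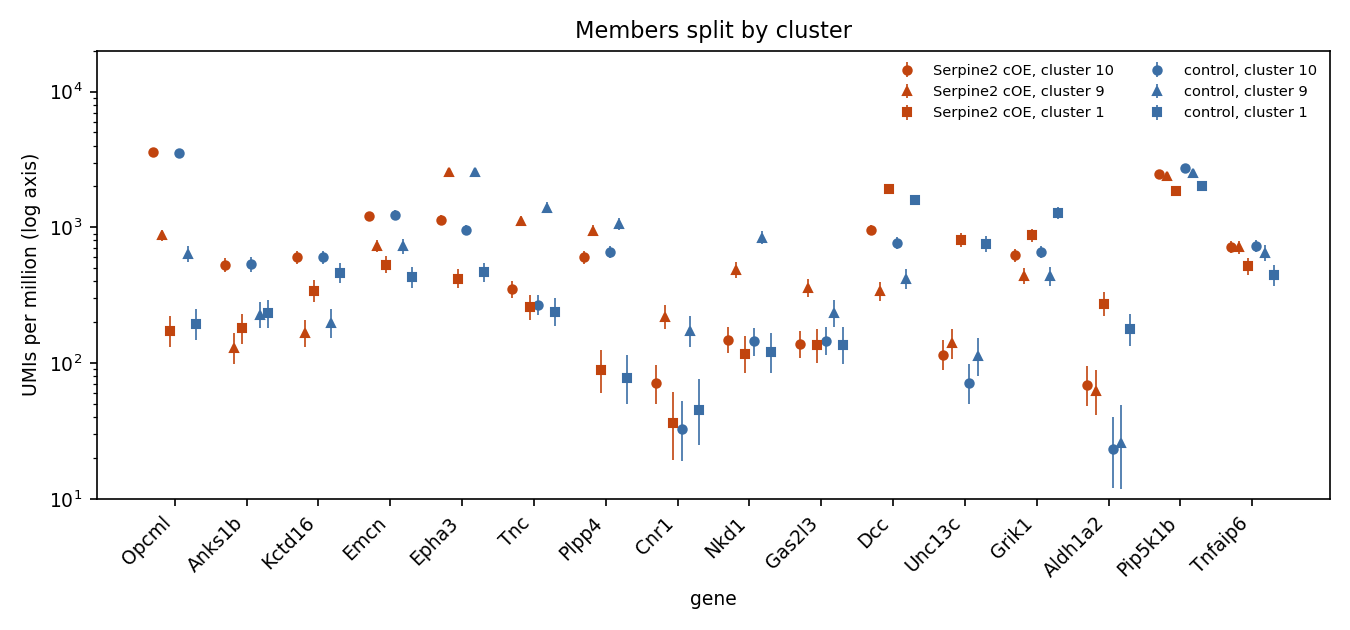
Level of 16 genes (CPM, log axis) in members of clusters 10 (circles), 9 (triangles) and 1 (squares), Serpine2 cOE left of control for each gene, with exact 95% Poisson intervals. Opcml spans 172 to 3585 CPM over the clusters in Serpine2 cOE members, whereas Pip5k1b spans 1841 to 2460 CPM.

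The members were next set beside nuclei gated on the genes that mark their nearest relatives. Against 1203 Serpine2 cOE and 795 control nuclei with Notum and Nkd1, 93 of 10023 genes (0.928%) were at least 2-fold higher in members in both libraries and 208 of 11499 (1.81%) lower. Opcml was at 1347 CPM in Serpine2 cOE members against 376 CPM and at 1398 CPM in control members against 388 CPM, and Kctd16 at 301 CPM in Serpine2 cOE members against 88.9 CPM and at 352 CPM in control members against 103 CPM. Itgbl1, an integrin-like secreted protein, was lower, at 180 CPM in Serpine2 cOE members against 960 CPM and at 245 CPM in control members against 1123 CPM.

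Against 427 Serpine2 cOE and 421 control nuclei with Col6a6 and Aldh1a2, 87 genes (0.868%) were higher and 93 of 8517 (1.09%) lower. Nav2, a neuron navigator gene, was at 643 CPM in Serpine2 cOE members against 94.7 CPM and at 686 CPM in control members against 140 CPM, and Plpp4 had log2 ratios of 2.51 and 2.37. Nrxn3 was lower, at 1957 CPM in Serpine2 cOE members against 6714 CPM and at 1731 CPM in control members against 6625 CPM. Stxbp5l, a gene of the gate, had log2 ratios of -0.08 in Serpine2 cOE and -0.11 in control there.

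The nuclei with Opcml and Moxd1, 475 in Serpine2 cOE and 520 in control, were the closest to the members among the 4 gates by count, with 52 genes (0.519%) higher and 23 of 8874 (0.259%) lower in members. Gas2l3 was at 184 CPM in Serpine2 cOE members against 47.9 CPM and at 172 CPM in control members against 57.98 CPM. Cacna1e had log2 ratios of 2.07 and 1.70, and Tnc of 1.73 and 1.49. Megf11 was lower in members, with log2 ratios of -1.40 in Serpine2 cOE and -1.59 in control, as was the homeobox gene Irx1 at -1.403 and -1.003, while Erbb4 stood at 0.16 and 0.17.

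Nuclei with 2 of Runx2, Dio2 and Coch, 270 in Serpine2 cOE and 192 in control, were the farthest, with 229 genes (2.28%) higher and 376 of 6528 (5.76%) lower in members. Tnfaip6 was at 531 CPM in Serpine2 cOE members against 36.8 CPM and at 528 CPM in control members against 27.5 CPM. Mybpc1, a myosin-binding protein gene, was at 1215 CPM in Serpine2 cOE members against 176 CPM and at 1265 CPM in control members against 220 CPM, and Creb5 at 1409 CPM in Serpine2 cOE members against 210 CPM and at 1607 CPM in control members against 307 CPM. Runx2, the osteogenic transcription factor that this gate used, was at 91.5 CPM in Serpine2 cOE members and 102 CPM in control members. These counts depend on how many nuclei and UMIs each gate holds, and the exclusions shared with the rule fix part of each difference.

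Members made up 7.54% of the kept nuclei in Serpine2 cOE (95% interval 7.04 to 8.07%) and 8.28% in control (7.70 to 8.88%). The ratio of the shares was 0.911 (0.822 to 1.01), or -0.13 on the log2 scale (-0.28 to 0.01). The interval includes 0, and under 4 other settings it lay wholly below 0. With nuclei of at least 1000 genes the log2 ratio was -0.22 (-0.38 to -0.07), with nuclei of at least 200 genes and up to 10% mitochondrial UMIs it was -0.15 (-0.2998 to -0.0034), and with 2 of the 6 genes required it was -0.18 (-0.30 to -0.06). Without the shallow cluster 11, which held 100 Serpine2 cOE and 788 control nuclei, it was -0.22 (-0.37 to -0.07). The ratio was above 0 with at least 4 of the 6 genes required, at 0.07 (-0.14 to 0.28), and without Erbb4 in the gate, at 0.0033 (-0.196 to 0.203), and both intervals include 0.

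Serpine2, a secreted inhibitor of serine proteases such as thrombin and plasminogen activators and the gene named in the genotype, was not higher in the Serpine2 cOE members. It had 157 UMIs in Serpine2 cOE members, or 74.4 CPM (63.2 to 87.0), and 191 UMIs in control members, or 101 CPM (87.6 to 117), a log2 ratio of -0.45 (-0.76 to -0.13). Within clusters 10, 9 and 1 the log2 ratios were 0.29, -0.24 and -0.83, and over the 3 clusters together -0.17 (-0.59 to 0.25). In the other kept nuclei the log2 ratio was -0.10. Whether the 3′ reads fall in the part of Serpine2 that recombination alters is not stated in the labels, so its level does not check the genotype.

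Lgr5, whose locus drives the recombinase, was scarce in members of both libraries. It was detected in 41 Serpine2 cOE members and 42 control members, at 49.8 and 38.2 CPM, a log2 ratio of 0.38 (-0.07 to 0.83), and over clusters 10, 9 and 1 the ratio was -0.16. A single nucleus held 41.0% of the Lgr5 UMIs of Serpine2 cOE members, and 13.9% lay in 1 nucleus in control. Few members thus show transcripts of the driver locus, and their recombination cannot be read from these data.

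Most genes differed little between the libraries within members. The median log2 ratio of Serpine2 cOE over control across 10023 genes was 0.02, with 5th and 95th percentiles of -0.49 and 0.58. At least 2-fold differences were found for 104 genes (1.04%), of which 74 (0.738%) were higher and 30 (0.299%) lower in Serpine2 cOE. In the other kept nuclei, which have more UMIs, 175 of 17703 genes (0.989%) were higher and 119 (0.672%) lower. Among the other nuclei of clusters 10, 9 and 1, 68 of 13688 (0.497%) were higher and 62 (0.453%) lower, so the members' share of such genes was near that of nuclei outside the gate.

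Of the genes of the gate, Erbb4 had the largest log2 ratio within members. It was at 3203 CPM in Serpine2 cOE members and 2313 CPM in control members, a log2 ratio of 0.47 (0.41 to 0.52). The ratio was 0.70 in cluster 10 members, 0.48 in cluster 9 members and 0.79 in cluster 1 members, and 0.63 over the 3 clusters together (0.57 to 0.69). The other nuclei of the same clusters had 0.54 and all other kept nuclei 0.18, so the difference was not confined to members. Gas2l3 had a log2 ratio of 0.10 (-0.11 to 0.32), Tnfaip6 of 0.01, Ano4 of 0.17 (0.05 to 0.29), Stxbp5l of 0.10 and Cacna1e of -0.06. In the other kept nuclei the log2 ratios of these genes were, in the same order, -0.07, -0.28, -0.04, -0.14 and -0.24. Detection of these genes chose the members, so their ratios within the gate are a description only.

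The genes with the clearest higher levels in Serpine2 cOE members included matrix proteins of bone, secreted proteins and genes carried by a few nuclei. Ibsp, bone sialoprotein, was at 41.7 CPM in Serpine2 cOE members and 10.1 CPM in control members (log2 ratio 2.05, 1.32 to 2.85), and Spp1, osteopontin, at 36.0 and 13.3 CPM (1.44). Ptgds, a prostaglandin D synthase, was at 39.8 CPM in Serpine2 cOE members and 12.2 CPM in control members (1.70), and Ttr, the thyroid hormone carrier transthyretin, at 71.6 and 27.1 CPM (1.40). In the other kept nuclei the log2 ratios of these 4 genes were 1.84, 1.15, 1.04 and 0.89, and over clusters 10, 9 and 1 they were 2.84, 1.34, 1.96 and 1.495. Each was thus higher in Serpine2 cOE across the tissue and not in members alone, and the part of RNA from other cells was not tested.

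Some further higher genes had many of their UMIs in 1 cluster with few members, and others were spread over clusters. Elavl4, a neuronal RNA-binding protein gene, had 50 UMIs in Serpine2 cOE members and 3 in control members (log2 ratio 3.89, 2.26 to 6.22), and 31 of the 50 lay in the 3 members of cluster 22, which was led by Nrg3, Snhg11 and Fgf12. Ccdc148 was at 66.8 CPM in Serpine2 cOE members and 17.5 CPM in control members (1.93), with 60 of its 141 UMIs in the 12 members of cluster 0 and a log2 ratio of 1.55 (0.50 to 2.73) over clusters 10, 9 and 1, and Gm16226 at 36.5 and 11.7 CPM (1.64), with 49 of 77 UMIs there. Tmprss9, a membrane serine protease gene, at 50.3 and 20.2 CPM, and Rasef, a small GTPase gene, at 43.6 and 17.0 CPM, had 34 of 106 and 33 of 92 UMIs in the 20 members of cluster 8. Gm17167, a noncoding transcript, was spread over 43 Serpine2 cOE members and 5 control members, at 21.3 and 2.66 CPM (3.01, 1.68 to 4.70), and had a log2 ratio of 0.98 (0.60 to 1.38) in the other nuclei of clusters 10, 9 and 1, while 2310009B15Rik was at 29.9 and 10.6 CPM (1.49).

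On the lower side, Tll2, a tolloid-like metalloprotease gene, was at 14.2 CPM in Serpine2 cOE members and 48.3 CPM in control members (log2 ratio -1.76, -2.41 to -1.16). Cluster 10 members held 25 of its 30 UMIs in Serpine2 cOE and 68 of 91 in control, and the log2 ratio in the other kept nuclei was -0.85. Casp9, an initiator caspase, was at 9.96 CPM in Serpine2 cOE members and 23.4 CPM in control members (-1.23), Fbxo31, an F-box protein gene, at 9.48 and 21.8 CPM (-1.20), and the histone gene H4c4, one of many near-identical copies, at 9.01 and 23.9 CPM (-1.41). Their log2 ratios in the other kept nuclei were -0.12, -0.10 and -0.13. Icam1, an adhesion molecule induced by inflammatory signals, was at 10.9 and 24.4 CPM (-1.16), and H2-T23, a nonclassical MHC class I gene, at 8.06 and 19.1 CPM (-1.25). In the other kept nuclei the log2 ratios of Icam1 and H2-T23 were -0.60 and -0.48. Over members of clusters 10, 9 and 1 they were -0.70 (-1.60 to 0.18) and -0.51 (-1.69 to 0.64), and both intervals include 0.

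The noncoding transcripts Gm47371, Gm41764, 1700001K23Rik, Gm17036 and Gm16201 were also lower in Serpine2 cOE members, with log2 ratios of -1.43, -1.41, -1.26, -1.12 and -1.04. Of the genes the rule limits, Notum, a Wnt-inactivating enzyme gene, was at 83.9 CPM in Serpine2 cOE members and 30.8 CPM in control members (1.45, 1.01 to 1.90), with 0.44 in the other kept nuclei, and Aldh1a2, a retinoic acid synthesis gene, at 95.3 and 49.9 CPM (0.93), with -0.01. Col6a6, a collagen VI chain gene, was at 32.7 CPM in Serpine2 cOE members and 65.9 CPM in control members (-1.01), with -0.47 in the other kept nuclei, and Nkd1 at 201 and 316 CPM (-0.65), with -0.23. A nucleus with 2 of these genes was left out, so these values describe nuclei that could hold at most 1 of them.

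**Figure D5:**
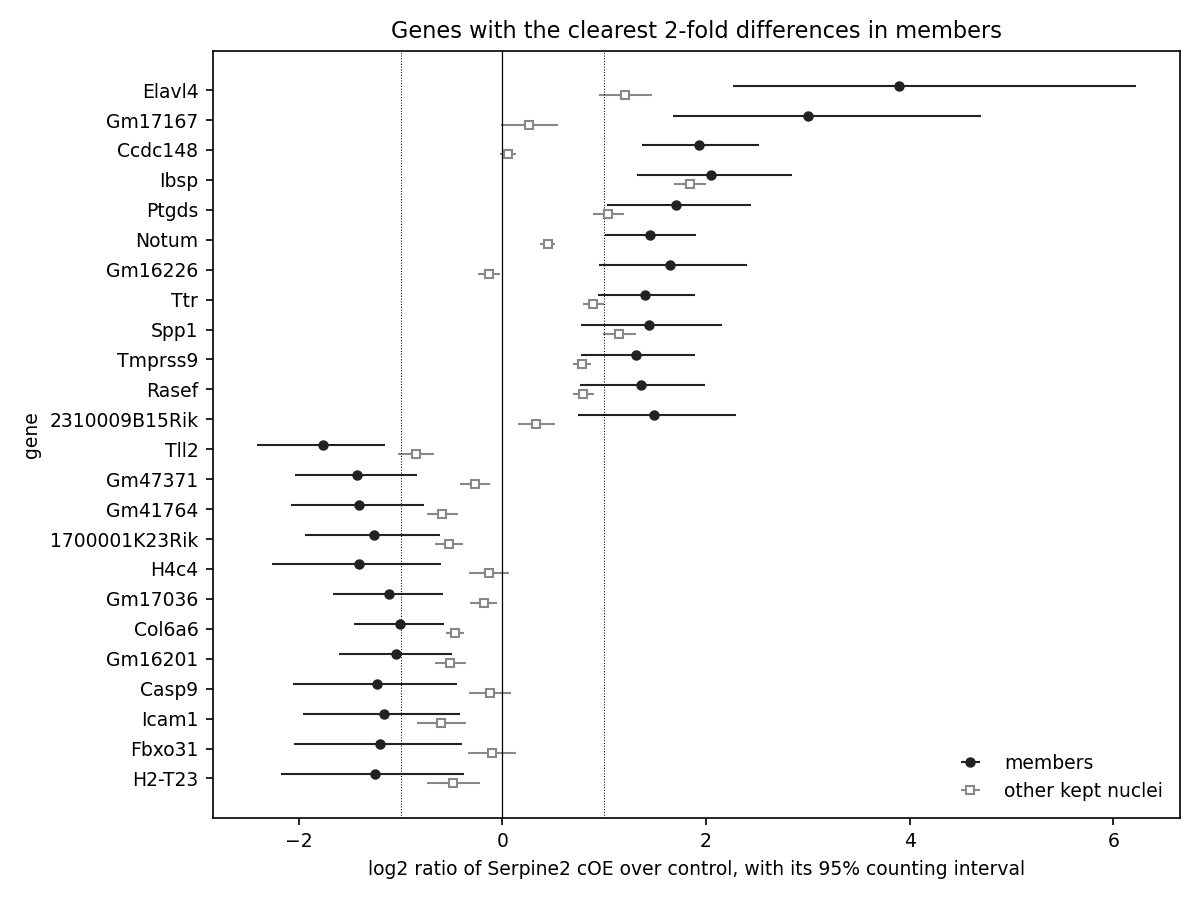
Log2 ratio of Serpine2 cOE over control for the 12 highest and 12 lowest named genes, in members (filled circles) and other kept nuclei (open squares), with 95% counting intervals and dotted lines at 2-fold. Ibsp and Spp1 lie near their values in the other nuclei, while Ptgds and Ttr are at 1.70 and 1.40 in members and at 1.04 and 0.89 in the others. Gm17167 and Ccdc148 are at 3.01 and 1.93 in members and at 0.27 and 0.05 in the others. In the other nuclei of clusters 10, 9 and 1, which are not plotted, Gm17167 and Ccdc148 are at 0.98 and 0.21.

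Most gene lists had medians near that of all genes. The median log2 ratio was -0.02 over 28 collagens, -0.03 over 37 mesenchymal transcription factors, 0.01 over 31 Wnt genes, 0.05 over 25 TGF-beta and BMP genes, -0.01 over 30 axon guidance genes and 0.10 over 9 genes of the plasminogen and thrombin systems, beside 0.02 over all genes. No gene counted in these lists passed 2-fold, beside 1.04% of all genes in either direction. Col6a6 and Notum, given above as past 2-fold, were not among the genes counted in the collagen and Wnt lists. Serpinb6a, a serine protease inhibitor, was at 138 CPM in Serpine2 cOE members and 158 CPM in control members (-0.19), and Lrp1, a receptor that takes up protease and inhibitor complexes, at 159 and 189 CPM (-0.25). Hyaluronan genes had a median of 0.01 over 5 genes, and cadherins, contactins and IgLON genes of 0.16 over 25. Of these 25, 2 (Cntn5 and Cdh1) were past 2-fold, beside the same 1.04% of all genes.

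Larger medians were seen for mitochondrial and interferon genes. The 11 mitochondrial transcripts had a median log2 ratio of 0.48, and of 0.39 in the other kept nuclei, with mt-Co1 at 418 CPM in Serpine2 cOE members and 299 CPM in control members. The 7 interferon genes had a median of -0.53, and of -0.31 in the others, with Iigp1, an interferon-induced GTPase, at 85.3 CPM in Serpine2 cOE members and 129 CPM in control members (-0.60) and H2-K1, a classical MHC class I gene, at 135 and 195 CPM (-0.53). Cluster 25 held 61 of the 243 Iigp1 UMIs of control members and 23 of the control members, against 9 of the Serpine2 cOE members. Over clusters 10, 9 and 1, H2-K1 had a log2 ratio of -0.25 and Iigp1 of -0.49.

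Of the listed genes past 2-fold that were not named above, Nrg3, Fgf12 and Cntn5 had many of their UMIs in the 3 members of cluster 22. Nrg3, a neuregulin that binds Erbb4, had 88 UMIs in Serpine2 cOE members and 17 in control members (log2 ratio 2.21), and 78 of the 88 lay in 3 nuclei, so that over clusters 10, 9 and 1 the ratio was -1.02. Fgf12 had 89 and 26 UMIs (1.61), 67 of the 89 in the same 3 nuclei, and a ratio of -0.11 over the 3 clusters. Cntn5 had 288 and 86 UMIs (1.58), 129 of the 288 there, and a ratio of 0.27. Cdh1, the epithelial cadherin, had 128 and 57 UMIs (1.00), none of them in cluster 22, and epithelial markers as a whole summed to 444 CPM in Serpine2 cOE members and 275 CPM in control members, a log2 ratio of 0.69 beside 0.57 in the other kept nuclei. The part of epithelial RNA in the members' values was not tested.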

How the data were processed

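Both deposited files hold UMI counts per gene and nucleus from a 10x 3′ library, filtered by the authors to called nuclei, per the file headers and labels, with Cell Ranger 8.0.1 named in the headers. The submitters' processing notes name mm10 and STAR while the design text names GRCm39, and strand use in counting is not given in the sources used here. Of 33696 gene IDs in the files, 33185 were in GENCODE M39, which gave the gene positions. Each group was 1 library, so no test was run and no p-value is given.

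Nuclei with at least 500 genes, up to 5% mitochondrial UMIs and up to 10000 UMIs were kept from 12014 Serpine2 cOE and 9820 control barcodes (40429121 and 31158971 UMIs). Doublets were scored with Scrublet in scanpy 1.11.5 and kept in the main values. All kept nuclei were clustered with 3000 variable genes, 50 components, 15 neighbours and resolution 1. Before this, all genes of the rule, Serpine2, Lgr5, Xist, Tsix and Y-linked genes were left out. Mitochondrial, ribosomal protein and hemoglobin genes were left out as well. UMIs were summed over nuclei of a library and given as CPM, with exact Poisson, Clopper-Pearson or conditional intervals at 95%. Genes needed 50 UMIs, and called means past 2-fold. In members, 3 UMIs correspond to 1.42 CPM in Serpine2 cOE and 1.59 CPM in control. PCR duplicates are collapsed by UMIs, but nuclei of a library are not independent replicates.

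Named genes were the genes of the gate, Serpine2 and Lgr5. To these were added the 25 genes with the highest ratio of members over the rest, ranked by the lower of the 2 libraries, with a UMI in 10% of members. For Serpine2 cOE over control, the 12 highest and 12 lowest genes past 2-fold were named, ranked by the interval bound nearest 0, without genes of which 1 nucleus held over 25% of UMIs and without Xist, Tsix and Y-linked genes. Listed genes past 2-fold were named as well, and other genes were chosen after their values were seen. Results on a few genes are not reported here. The members, the 21 marker lists and the 25 gene lists were chosen with earlier results of these data known. Alternatives changed the filters, the gate, the depth, the weighting of nuclei, the UMI minimum and the scaling (TMM factors of edgeR 4.0.16 in R 4.3.3). Python 3.11.15, numpy 2.4.6, scipy 1.17.1, pandas 2.3.3 and matplotlib 3.10.9 were used, and scripts were tested on simulated data.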

Additional observations from a re-analysis of the deposited data

How the results depend on the processing

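No paired analysis was possible because each group is 1 library, and for the same reason no library could be left out. The main values were 74 genes at least 2-fold higher and 30 lower in Serpine2 cOE members than in control members, 16 genes higher and 1099 lower in members than in the rest, and a log2 ratio of shares of -0.13. In the Serpine2 cOE to control comparison, 124 genes were higher with no UMI ceiling and 177 with at least 2 genes of the gate. Without the exclusions 118 were higher and 55 lower, and with nuclei thinned to 1000 UMIs 21 were higher and 14 lower. With each nucleus weighted equally 50 were lower. A minimum of 20 UMIs gave 263 higher and 184 lower, and one of 200 UMIs gave 6 higher and 0 lower, where 4417 genes remained. Cluster 10 members alone gave 32 higher. Cluster 9 alone gave 30 higher and 18 lower, and cluster 1 alone 23 higher. The alternatives on clusters 9 and 1, on the 3 main clusters and without cluster 11 were chosen after seeing the data.

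For members over the rest, 27 genes were higher with at least 4 genes of the gate, 28 without the top doublet scores and 66 without the exclusions. With at least 2 genes of the gate 6 were higher and 632 lower, and cluster 10 members alone gave 66 higher and 2857 lower. The log2 ratio of shares was 0.071 with at least 4 genes of the gate and between -0.22 and 0.00 under the other alternatives. A turn of direction was marked only for log2 ratios at or past 2-fold in the main values. Those that turned on thinning were those of Gm16226 (-1.79), Casp9 (0.80), Nrg3 (-1.20), Fgf12 (-0.20) and Cntn5 (-0.32). In cluster 10 alone they were those of Nrg3 (-0.049), Fgf12 (-2.63), Cntn5 (-0.26) and, for members over the rest, Cacna1e (-0.95). In cluster 9 alone they were those of Col6a6 (0.16), Gm16226 (-1.42), Tmprss9 (-0.42) and Nrg3 (-0.42). In cluster 1 alone they were those of H2-T23 (0.36), Nrg3 (-3.03) and Fgf12 (-0.81). Over the 3 main clusters they were those of Nrg3 (-1.02) and Fgf12 (-0.11). Fewer UMIs were left in the thinned and single-cluster settings, and otherwise the cause was not tested. Of the remaining values for single genes, lists and the share of members in each library, 2705 stayed within their counting error and 515 lay outside it. Main ratios below 2-fold that changed sign are among these, such as that of Serpine2 in cluster 10 (0.29, against -0.45 over all members).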

Other observations

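Some listed genes were absent from the members of both libraries. Crabp1, a retinoic acid binding protein gene, the retinoic acid hydroxylase genes Cyp26a1 and Cyp26c1, the thyroid hormone inactivating enzyme gene Dio3 and the ligand gene Wnt11 had no UMI, where 3 UMIs correspond to 1.42 CPM in Serpine2 cOE members and 1.59 CPM in control members. The melanocyte genes Tyrp1 and Mlana were likewise at 0 in both, while the melanocyte list summed to 87.7 CPM in Serpine2 cOE members and 77.6 CPM in control members.

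Slc1a3, a glutamate transporter of glia and fibrocytes, was at 1502 CPM in Serpine2 cOE members against 1021 CPM in the other kept nuclei, and at 1516 CPM in control members against 1113 CPM. Kcnb2, a delayed rectifier potassium channel gene, was at 1796 CPM in Serpine2 cOE members against 1167 CPM and at 1704 CPM in control members against 1308 CPM. The proliferation markers summed to 44.1 CPM in Serpine2 cOE members and 68.0 CPM in control members, a log2 ratio of -0.62, and cluster 18, led by cycling genes such as Top2a, gave 1 member of 10 Serpine2 cOE nuclei and 4 of 18 control nuclei. Gas2, a relative of Gas2l3, was at 294 CPM in Serpine2 cOE members and 224 CPM in control members, a log2 ratio of 0.39, beside 0.52 in the other kept nuclei.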
